A study of Mus musculus with 10 samples.

Results

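Interferon-stimulated genes are the genes that a cell switches on when interferon reaches it. A list of 39 of them was followed in natural killer (NK) cells and in whole spleen cells of the mouse. The rule takes members by gene symbol from a list drawn up with earlier results of these data known, and 37 of the 39 had a probe set of their own on the array. For Isg15 the probe set is assigned to a second gene as well, and Ifi44 was not found in the annotation used. Both are not analysed here. All 18193 genes with a probe set of their own served as the background.

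Type I interferons, made mainly by infected or pathogen-sensing cells, bind the receptor IFNAR1/IFNAR2 and act through the kinases JAK1 and TYK2. These activate transcription factors that join IRF9 and bind a short DNA element, the interferon-stimulated response element (ISRE), in the promoters of antiviral genes. Interferon gamma, which NK cells themselves secrete, acts through IFNGR1/IFNGR2, JAK1 and JAK2 and favours genes such as those of the immunity-related GTPases (IRG) and guanylate-binding proteins (GBP). The induced proteins sense viral nucleic acid, block viral RNA, tag proteins with the ubiquitin-like ISG15, or call in other cells.

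Affymetrix MOE430_2 arrays of 3 groups, each array read in 1 colour, were compared. Resting NK cells were sorted from spleens of wild type C57Bl/6 mice as NK1.1+CD3- cells, to over 99% purity, and lysed at once (3 arrays). IL-15 NK cells were sorted in the same way and then cultured for 24 h with 100 ng/mL IL-15, a cytokine that keeps NK cells alive and activates them (3 arrays). Bulk splenocytes were lysed unsorted and untreated (4 chips, which were 2 biological samples with 2 chips each). The labels give neither age nor sex, and name no strain for the splenocytes. NK cells cultured without IL-15 are not analysed here, so the cytokine and the 24 h of culture cannot be told apart. NK RNA was amplified in 2 cycles and splenocyte RNA in 1 cycle, so that cell type and amplification cannot be told apart either.

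Levels are log2 signals, relative to the other genes of the same array, because every array carries the same mean signal. Signals under 179.8 units (log2 7.49) were set to this floor. A fold is given as "at least" where an array of the dimmer group lay at the floor. Differences are of mean log2 signals with the standard error (SE) of limma, and adjusted p is Benjamini-Hochberg over all genes tested.

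The NK label held in both NK groups: all 13 NK-cell markers on the array were brighter there than in splenocytes, and their summed signal was 725% to 1190% of the splenocyte level. Signal of markers of other cell types differed between the arrays, and which cells gave it was not tested. Relative to splenocytes, the summed signal of 13 B-cell markers was 9.74% in resting replicate 1 and 9.95% in replicate 2, but 0.863% in replicate 3, near the 0.476% to 0.692% of the IL-15 arrays. For 13 macrophage and monocyte markers it was 10.4%, 15.1% and 16.0% on resting replicates 1, 2 and 3 and 4.59% to 4.98% on IL-15 arrays. T-cell markers stood at 22.6% to 26.4% and 10% to 11.5%. Their median level at rest was only 6.94% to 13.7%, and 2 of 13 did not pass between resting NK cells and splenocytes. Plasmacytoid dendritic cell markers stood at 8.99% to 14.0% and 5.15% to 5.66%, and 3 of 8 did not pass there. Neutrophil markers stood at 0.747% to 2.14%, highest on resting replicate 3, and 0.388% to 0.614%. Conventional dendritic cell markers, some of which NK cells also express, stood at 186% to 294% and 85.7% to 182%, and erythroid markers at 3.84% to 6.90% and 5.79% to 9.74%. The ratio of 3-prime to 5-prime signal of Gapdh, a measure of RNA and label integrity, was 5.88 to 9.54 on resting, 2.90 to 3.81 on IL-15 and 1 to 1.39 on splenocyte arrays.

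Promoters of the members carried the ISRE letters more often than promoters at large. RefSeq windows on GRCm38.p6, from 250 bases before to 50 bases after the start of transcription, were found for 28 of the 39 members. Either strand was searched for GAAANNGAAA, which reads TTTCNNTTTC on the other strand, and matches may overlap. It was present in 13 of 28 members (46.4%) and in 1079 of 27025 genes (3.99%). Shown here are the stretches around the match, 5′ to 3′ on the gene's strand with the match in capitals, of 5 members that were lower after IL-15 and of 1, Igtp, that was higher. They show that the same letters stand before genes that moved in opposite directions.
Rsad2, chr12:26456538-26456597, minus strand: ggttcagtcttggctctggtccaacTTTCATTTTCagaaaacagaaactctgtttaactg
Ifit1, chr19:34640760-34640838, plus strand: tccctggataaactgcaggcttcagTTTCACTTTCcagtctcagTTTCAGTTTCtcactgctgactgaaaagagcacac
Ifit3, chr19:34583348-34583441, plus strand: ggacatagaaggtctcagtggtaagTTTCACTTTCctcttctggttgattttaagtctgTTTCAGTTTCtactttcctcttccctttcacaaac
Cxcl10, chr5:92349068-92349127, minus strand: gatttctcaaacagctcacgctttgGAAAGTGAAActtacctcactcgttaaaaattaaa
Gbp2, chr3:142620579-142620638, plus strand: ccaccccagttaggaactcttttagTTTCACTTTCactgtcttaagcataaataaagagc
Igtp, chr11:58199497-58199555, plus strand: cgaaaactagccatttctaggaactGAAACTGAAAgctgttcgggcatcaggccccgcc

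The first match began 120 bases before the start of Rsad2, 104 before that of Ifit1, 156 before that of Ifit3, 213 before that of Cxcl10, 59 before that of Gbp2 and 34 before that of Igtp. Ifit1 and Ifit3 hold 2 matches each. Counted by response to IL-15, the letters stood in 6 of 11 members that were lower, 1 of 2 that were higher and 4 of 11 that did not pass. A match is a run of letters and was not tested as a binding site.

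After 24 h with IL-15, 13 interferon-stimulated genes fell, 2 rose and 19 did not pass the test, of 34 tested. Over all 11433 genes tested, 12.1% were called lower and 14.2% higher. The members' median difference was -0.60, beside -0.09 for all genes, and 27 of the 34 differences were negative. Fallen members were Rsad2, Cmpk2, Ifit1, Ifit2, Ifit3, Oasl1, Ifih1, Mx1, Gbp2, Dtx3l, Cxcl10, Xaf1 and Rtp4. Igtp and Lgals3bp rose.

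**Figure D1:**
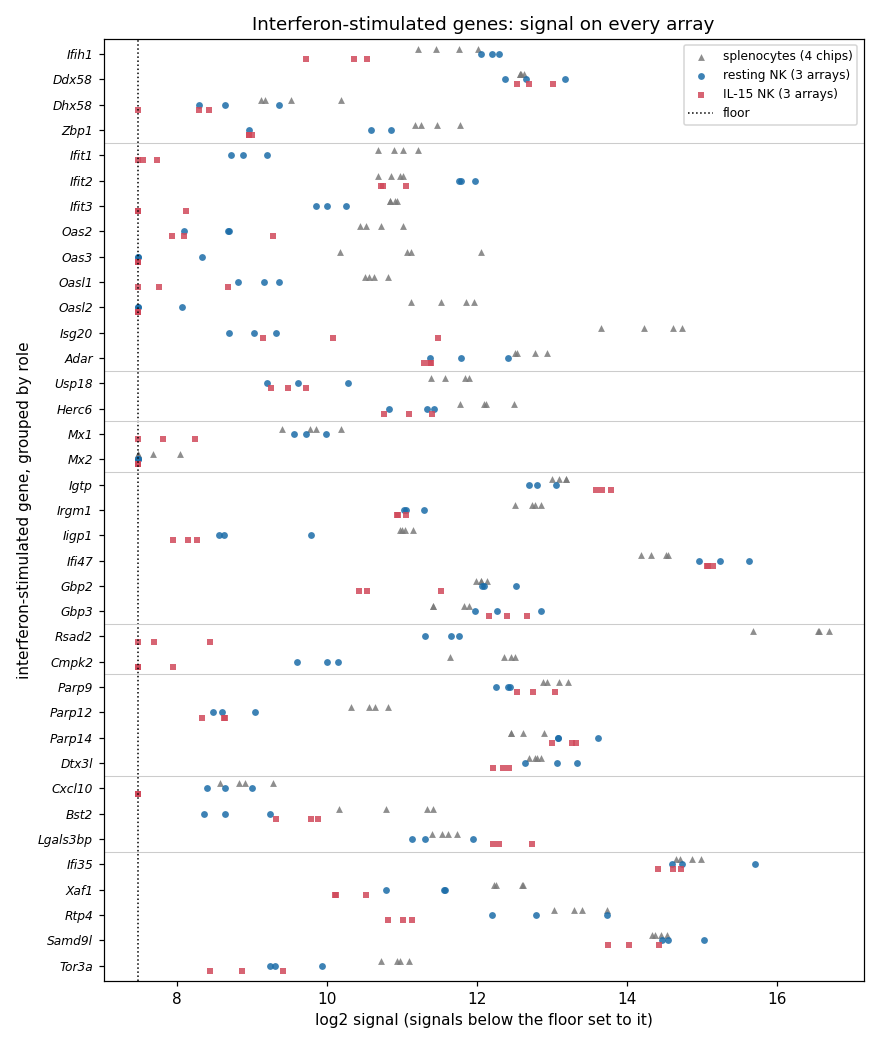
Log2 signal of each interferon-stimulated gene (rows, grouped by role) on every array, with signals below the floor drawn at the floor (dotted line). Circles are the 3 resting NK arrays, squares the 3 IL-15 NK arrays and triangles the 4 splenocyte chips; for Rsad2, Cmpk2, Ifit3 and Mx1 the squares lie at or near the floor while the circles lie above it.

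Of the members, 34 were above the floor on all 3 resting arrays and 26 on all 3 IL-15 arrays, and 4 (Oas3, Oasl2, Mx2 and Cxcl10) were at the floor on every IL-15 array. Counted per array, 34 to 36 of 37 members were above the floor at rest and 29 to 31 after IL-15. Of all probe sets, 57.8% to 61.7% were above the floor on the resting arrays and 51.1% to 56.5% on the IL-15 arrays. Oas3, Oasl2 and Mx2 were above it on too few NK arrays to be tested. Cxcl10, counted among the 13, entered the test only through its resting arrays, where it is high. Ifit3 and Cmpk2 were above the floor on 1 IL-15 array each, and Ifit1, Oasl1, Mx1 and Rsad2 on 2 each. They too reached the test only with their resting arrays, where they are high. With every gene tested and no filter on low signals, 8 members fell and 1 rose of 37. Calls were fewer over all genes too, with 677 lower and 969 higher of 18193. The main fit had 1384 lower and 1619 higher of 11433. The calls lost there were those of Rtp4, Gbp2, Xaf1, Dtx3l, Oasl1 and Lgals3bp (adjusted p = 0.065, 0.085, 0.095, 0.12, 0.17 and 0.12). Leaving out 1 array at a time gave 9 to 13 falling members, with the lowest count without resting replicate 1, and 1 to 3 rising ones, with the lowest count without IL-15 replicate 2.

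**Figure D2:**
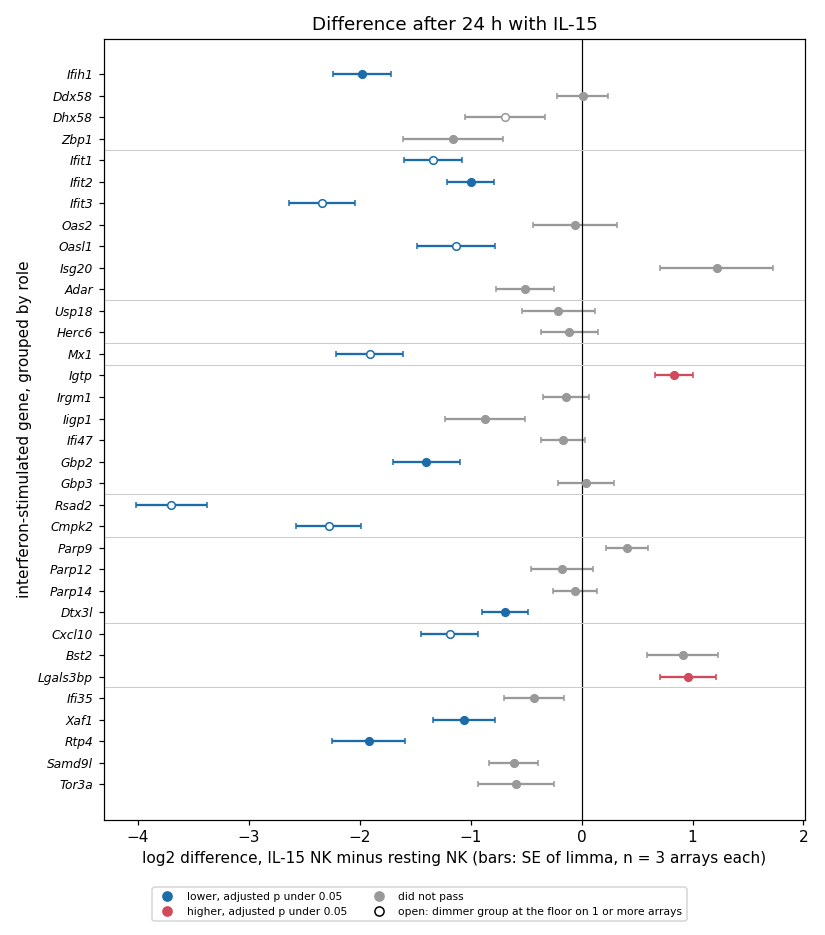
Log2 difference, IL-15 NK minus resting NK, of the 34 members tested, with the SE of limma (n = 3 arrays in each group). Blue marks members that fell, red members that rose and grey those that did not pass, and open symbols mark members whose dimmer group lay at the floor on 1 or more arrays. Rsad2 lies farthest left, at -3.70.

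Of the 4 RNA sensors 1 fell and 3 did not pass. The role groups are small, and over all genes tested 12.1% were called lower and 14.2% higher. Ifih1, the gene of MDA5, which recognises long double-stranded RNA, gave log2 signals of 12.20, 12.06 and 12.30 on the resting arrays, 9.72, 10.54 and 10.37 on the IL-15 arrays and 11.76, 11.22, 11.45 and 12.02 on the splenocyte chips. Every resting array was above every splenocyte chip, and every IL-15 array was below all of them. Ifih1 fell by 1.98 ± 0.26 on the log2 scale (SE), which is 3.93-fold (adjusted p = 0.00046). Ddx58, the gene of RIG-I, which recognises RNA with 5-prime triphosphates, differed by 0.01 (adjusted p = 0.98), with 12.38 to 13.17 on resting and 12.53 to 13.01 on IL-15 arrays. Its other 2 probe sets differed by -0.38 and -0.68 and did not pass either (adjusted p = 0.40 and 0.10 over all probe sets). Dhx58, the gene of LGP2, a helicase that modulates the other sensors, differed by -0.69 (adjusted p = 0.19).

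Zbp1, a sensor of left-handed nucleic acid that can start necroptosis, depended on 1 array. It gave 10.86, 10.59 and 8.97 at rest and 8.97, 8.97 and 9 after IL-15, so resting replicate 3 was as dim as the IL-15 arrays. Its difference of -1.16 did not pass (adjusted p = 0.084), and without resting replicate 3 it was -1.74 (adjusted p = 0.0025). A second probe set of Zbp1 was lower by 1.46 (adjusted p = 0.015 over all probe sets). Splenocyte chips gave 11.47, 11.78, 11.25 and 11.17 for Zbp1. Summed B-cell markers, at 9.74%, 9.95% and 0.863% of splenocytes on resting replicates 1, 2 and 3, also set replicate 3 apart. The part of B cells in this result was not tested.

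Among the proteins that bind, cut or edit RNA, 4 of 7 tested fell and none of these 7 rose. Over all genes tested 12.1% were called lower and 14.2% higher. Ifit3, an IFIT family protein that works in a complex on viral RNA, gave 10.01, 9.86 and 10.26 at rest and 7.49, 7.49 and 8.13 after IL-15. Splenocyte chips gave 10.84, 10.93, 10.84 and 10.91. The IL-15 arrays lay at or just above the floor, and the resting arrays a little below the splenocytes. Ifit3 fell by 2.34 ± 0.30 on the log2 scale, which is at least 5.06-fold (adjusted p = 0.00041). Mice carry a near-identical copy, Ifit3b, whose RNA the probe set may also detect.

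Ifit1, which binds viral RNA by its cap or 5-prime end, gave 8.72, 8.88 and 9.20 at rest, 7.56, 7.49 and 7.74 after IL-15, and 10.89, 10.68, 11.01 and 11.22 in splenocytes. The 3 groups did not overlap, with IL-15 arrays lowest and splenocytes highest. It fell by 1.34 ± 0.26 on the log2 scale, which is at least 2.53-fold (adjusted p = 0.0045). Ifit2, its partner in the same family, was 11.76, 11.97 and 11.79 at rest, 10.75, 11.05 and 10.73 after IL-15 and 11.01, 10.69, 10.85 and 10.97 in splenocytes. Here the resting arrays stood above both other groups, and the IL-15 arrays overlapped with the splenocytes. Ifit2 fell by 1 ± 0.21, which is 2.00-fold (adjusted p = 0.0060).

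Oasl1, an OAS-like protein that restrains translation of Irf7 in mice, was 9.16, 9.36 and 8.82 at rest and 7.49, 8.69 and 7.76 after IL-15. IL-15 replicate 2 came close to the resting arrays. The fall, at least 2.19-fold (log2 difference -1.13 ± 0.35, adjusted p = 0.038), did not pass without resting replicate 1 or 2 or IL-15 replicate 1 or 3 (adjusted p = 0.085, 0.078, 0.15 and 0.12). Oas2, a synthetase of the second messenger 2-5A, differed by -0.06 (adjusted p = 0.93), with 8.10 to 8.70 at rest and 7.94 to 9.28 after IL-15.

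Isg20, an RNA exonuclease, was 8.70, 9.33 and 9.03 at rest and 10.09, 11.48 and 9.15 after IL-15, so that IL-15 replicate 3 overlapped with rest. Its difference of 1.22 did not pass (adjusted p = 0.10), and without IL-15 replicate 3 it was 1.77 (adjusted p = 0.024). Adar, which edits adenosine to inosine in double-stranded RNA, differed by -0.51 (adjusted p = 0.19), and by -0.75 without resting replicate 2 (adjusted p = 0.040).

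The 2 genes measured from the ISG15 system did not pass. Herc6, taken to be the main ligase for ISG15 in mice, gave 11.43, 11.34 and 10.83 at rest, 11.09, 11.40 and 10.77 after IL-15, and 12.09, 11.78, 12.12 and 12.49 in splenocytes. Resting and IL-15 arrays overlapped over most of their range, and all splenocyte chips were above them. The difference was -0.11 ± 0.26 (adjusted p = 0.79), and its sign changed with the choice of array or probe set. Usp18, the protease that removes ISG15 and damps the interferon receptor, was 9.20 to 10.29 at rest and 9.26 to 9.73 after IL-15 (difference -0.21, adjusted p = 0.68).

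Mx1, a dynamin-like GTPase that traps viral nucleocapsids and is not functional as a protein in most laboratory mice, gave 9.99, 9.56 and 9.72 at rest and 8.24, 7.82 and 7.49 after IL-15. Splenocytes gave 9.40, 10.19, 9.86 and 9.78. Resting NK cells and splenocytes overlapped, and all IL-15 arrays were dimmer. Mx1 fell by 1.91 ± 0.30 on the log2 scale, which is at least 3.76-fold (adjusted p = 0.0013). Mx2 was at the floor on all NK arrays and on 2 of 4 splenocyte chips.

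The IRG and GBP GTPases, which attack the vacuoles of intracellular pathogens and respond strongly to interferon gamma, gave 1 member of 6 that rose, 1 that fell and 4 that did not pass, shares close to those over all genes. Igtp, also known as Irgm3, was 12.69, 12.80 and 13.05 at rest, 13.59, 13.79 and 13.67 after IL-15 and 13.00, 13.10, 13.19 and 13.19 in splenocytes. The IL-15 arrays stood above both other groups. Igtp rose by 0.83 ± 0.17, which is 1.78-fold (adjusted p = 0.0059). Gbp2 gave 12.07, 12.10 and 12.52 at rest, 10.54, 11.52 and 10.43 after IL-15 and 12.05, 12.14, 11.99 and 12.05 in splenocytes.

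Gbp2 thus overlapped with splenocytes at rest and was dimmer on every IL-15 array, with IL-15 replicate 2 nearest to rest. It fell by 1.4 ± 0.30, which is 2.64-fold (adjusted p = 0.0069). Its second probe set was lower by 0.64 and did not pass (adjusted p = 0.17 over all probe sets), and the set used is of a type that can also detect related genes. Differences of Irgm1, Iigp1, Ifi47 and Gbp3 were -0.14, -0.87, -0.17 and 0.04 (adjusted p = 0.66, 0.10, 0.55 and 0.92).

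Rsad2 and Cmpk2 are neighbours in the genome. Rsad2 encodes viperin, which turns CTP into a chain-terminating nucleotide, and Cmpk2 encodes a mitochondrial kinase that supplies it. Rsad2 gave 11.31, 11.76 and 11.65 at rest, 7.49, 7.70 and 8.44 after IL-15 and 16.56, 15.68, 16.55 and 16.69 in splenocytes. No array of any group came near another group. Rsad2 fell by 3.70 ± 0.32 on the log2 scale, which is at least 13.0-fold (adjusted p = 4.9e-05), the largest difference among the 34 members tested.

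The resting level of Rsad2, from mean log2 signals, was 3.60% of the splenocyte level. On the same arrays the macrophage and monocyte markers stood at 10.4% to 16.0% in summed signal and at 4.57%, 7.23% and 10.8% in median level. The part of other cells in the fall of Rsad2 was not tested. Its other 2 probe sets were above the floor on at most 2 of 3 resting arrays, and the mean over its probe sets fell by 1.56. Cmpk2 was 9.61, 10 and 10.15 at rest, 7.95, 7.49 and 7.49 after IL-15, and 12.45, 11.64, 12.36 and 12.51 in splenocytes. It shows the same order of groups as Rsad2, without overlap. Cmpk2 fell by 2.28 ± 0.29 on the log2 scale, which is at least 4.85-fold (adjusted p = 4e-04). Its second probe set was at the floor on all IL-15 arrays and on 2 of 3 resting arrays, and the mean over both fell by 1.25.

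Of the ADP-ribosylation genes 1 of 4 fell, too few to set apart from the 12.1% called lower over all genes tested. Dtx3l, a ubiquitin ligase that forms a complex with PARP9, was 13.07, 12.64 and 13.33 at rest, 12.43, 12.35 and 12.21 after IL-15 and 12.80, 12.69, 12.85 and 12.77 in splenocytes. The gap between its lowest resting and highest IL-15 array was small. It fell by 0.69 ± 0.21, which is 1.61-fold (adjusted p = 0.033). Of the 6 fits that each leave out 1 array, only the fit without resting replicate 2 kept the call (adjusted p = 0.0071); the others gave adjusted p of 0.067 to 0.12. A second probe set differed by -0.17.

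Parp9, Parp12 and Parp14, enzymes or relatives of enzymes that attach ADP-ribose to proteins, differed by 0.41, -0.18 and -0.06 (adjusted p = 0.15, 0.67 and 0.85). For Parp14 the probe sets disagreed: the second one was lower by 1.45 (adjusted p = 0.0055 over all probe sets), from 10.57 to 9.11.

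Of the secreted or surface proteins 1 fell, 1 rose and 1 did not pass. That is too few to set beside the 12.1% lower and 14.2% higher over all genes tested. Cxcl10, a chemokine that draws T and NK cells bearing CXCR3, was 8.40, 9.01 and 8.64 at rest, at the floor on all 3 IL-15 arrays and 8.91, 8.83, 9.29 and 8.58 in splenocytes. Resting NK cells and splenocytes overlapped. Cxcl10 fell by 1.19 ± 0.26 on the log2 scale, which is at least 2.29-fold (adjusted p = 0.0080), and without any 1 resting array it was above the floor on too few arrays to be tested. With the floor at the 50th percentile of signals the difference was -0.52 (adjusted p = 0.10), and with no floor and an offset of 50 it was -1.94 (adjusted p = 0.0095).

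Lgals3bp, a secreted glycoprotein that binds galectins, gave 11.95, 11.14 and 11.31 at rest, 12.22, 12.74 and 12.30 after IL-15 and 11.40, 11.62, 11.54 and 11.74 in splenocytes. All IL-15 arrays were above both other groups. It rose by 0.96 ± 0.25, which is 1.94-fold (adjusted p = 0.019), and without IL-15 replicate 2 by 0.80 (adjusted p = 0.074), which did not pass. Bst2, the gene of tetherin, which holds budding virus to the cell, was 9.25, 8.36 and 8.64 at rest and 9.79, 9.88 and 9.33 after IL-15. These arrays did not overlap, but the difference of 0.91 did not pass (adjusted p = 0.061), while it did without resting replicate 1 (1.16, adjusted p = 0.033).

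In the remaining role group 2 of 5 measured members fell, beside 12.1% of all genes tested. Rtp4, known as a chaperone of receptors that is induced by interferon, was 12.79, 12.20 and 13.74 at rest, 11.13, 11.02 and 10.81 after IL-15 and 13.74, 13.03, 13.40 and 13.29 in splenocytes. Its resting arrays were widely spread but all above the IL-15 arrays. Rtp4 fell by 1.92 ± 0.33, which is 3.80-fold (adjusted p = 0.0023), and by 1.01 in the mean over its probe sets.

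Xaf1, a factor that opposes the apoptosis inhibitor XIAP, was 11.56, 10.79 and 11.57 at rest, 10.52, 10.12 and 10.11 after IL-15 and 12.60, 12.23, 12.25 and 12.61 in splenocytes. Resting replicate 2 was near the highest IL-15 array. Xaf1 fell by 1.06 ± 0.28, which is 2.09-fold (adjusted p = 0.019), and its second probe set by 1.35 (adjusted p = 0.0039 over all probe sets). The call was lost without resting replicate 1 or 3 or IL-15 replicate 2 or 3 (adjusted p = 0.070, 0.057, 0.059 and 0.069).

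Ifi35, Samd9l and Tor3a differed by -0.43, -0.61 and -0.59 (adjusted p = 0.28, 0.070 and 0.23). Samd9l, which restrains translation and growth, passed without resting replicate 2 (-0.71, adjusted p = 0.038) and without IL-15 replicate 1 (-0.79, adjusted p = 0.045). For Tor3a a second probe set was lower by 1.27 (adjusted p = 0.018 over all probe sets).

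Upstream in the pathway the interferon genes gave little signal apart from Ifng. Of 7 on the array, 2 could be tested. Ifng, the gene of interferon gamma, was 15.37, 15.17 and 14.37 at rest and 14.02, 13.86 and 13.73 after IL-15, without overlap, and fell by 1.10 ± 0.25 (adjusted p = 0.0091). Ifnb1, the gene of interferon beta, was above the floor on 2 resting arrays and 1 IL-15 array (difference -0.37, adjusted p = 0.44).

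Of 7 receptor and kinase genes tested 2 fell and 5 did not pass. With 12.1% of all genes tested called lower, so small a count does not set the group apart. Tyk2, the kinase of the IFNAR1 chain, was 13.26, 13.20 and 13.22 at rest and 11.69, 12.11 and 12.03 after IL-15, and fell by 1.28 ± 0.18 (adjusted p = 0.00076). Jak2, a kinase of the interferon gamma receptor, fell by 0.86 ± 0.22 (adjusted p = 0.016). Ifngr2, the chain of that receptor that binds JAK2, was at the floor on all 6 NK arrays.

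Transcription factors of the pathway fell in 3 of 8 cases, and the other 5 did not pass, beside 12.1% lower over all genes tested. Irf7, the factor that amplifies interferon alpha production, was 11.95, 11.33 and 11.31 at rest, 9.49, 10.04 and 9.89 after IL-15 and 11.57, 11.63, 11.58 and 12.03 in splenocytes. Resting NK cells and splenocytes overlapped, and all IL-15 arrays were lower. Irf7 fell by 1.72 ± 0.27, which is 3.30-fold (adjusted p = 0.0015). Irf9, a DNA-binding part of the complex that type I interferon activates, fell by 1.10 ± 0.26 (adjusted p = 0.012), and Irf1, induced by interferon gamma, by 0.66 ± 0.18 (adjusted p = 0.020). Stat2 differed by -0.21 (adjusted p = 0.56) from levels near the floor.

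Negative regulators moved both ways, with 2 of 9 higher, 2 lower and 5 that did not pass. Over all genes tested 14.2% were called higher and 12.1% lower. Socs1, an inhibitor of JAK kinases that cytokines of the IL-15 family also induce, was at the floor on all resting arrays, so that it entered the test only through the IL-15 arrays, which gave 8.98, 9.69 and 9.24. It rose at least 3.51-fold (adjusted p = 0.0012). Ptpn6, the phosphatase SHP-1, rose by 1.01 ± 0.28 (adjusted p = 0.022). Socs3, a feedback inhibitor best known from IL-6 signals, was 13.38, 13.19 and 11.01 at rest and 10.33, 10.86 and 10.35 after IL-15, with resting replicate 3 near the IL-15 arrays. It fell by 2.01 ± 0.52 (adjusted p = 0.018). Samhd1, an enzyme that breaks down nucleotides, fell by 1.12 ± 0.19 (adjusted p = 0.0020).

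In nucleic acid sensing 2 of 9 genes tested fell and 7 did not pass, a count too small to set apart from 12.1% over all genes. Unc93b1, which carries Toll-like receptors to endosomes, fell by 1.54 ± 0.41 (adjusted p = 0.020). Ikbke, a kinase that activates IRF3 and IRF7, fell by 1.28 ± 0.28 (adjusted p = 0.0074).

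A further list holds 57 other interferon-induced genes, 45 of them on the array. Of 42 tested, 15 fell, 4 rose and 23 did not pass, with a median difference of -0.48. Over all genes tested 12.1% were called lower and 14.2% higher, with a median of -0.09. Ifitm1, a membrane protein that hinders virus entry, was 7.60, 8.28 and 7.49 at rest, 12.21, 11.61 and 10.99 after IL-15 and 11.47, 11.38, 10.88 and 11.90 in splenocytes. It went from near the floor at rest to a level that overlapped with splenocytes, and rose at least 14.1-fold (3.81 ± 0.37, adjusted p = 8.3e-05). Too few of its resting arrays were above the floor, so Ifitm1 reached the test only with the IL-15 arrays, where it is high. Nampt, an enzyme of NAD synthesis, rose by 1.82 ± 0.32 (adjusted p = 0.0025). Ifi27l2a, at the floor on all IL-15 arrays and tested only through its resting arrays, fell at least 3.74-fold (adjusted p = 0.024), and Ms4a4c, a membrane protein of lymphocytes and myeloid cells, by 1.75 ± 0.30 (adjusted p = 0.0019).

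Most lists of markers of other cells, but not the erythroid one, had a lower summed signal after IL-15. Summed over the 13 members that fell, the signal was 28.7%, 25.3% and 37.4% of the splenocyte level on the resting arrays. On the IL-15 arrays it was 11.0%, 12.3% and 10.1%. These 13 were picked by their fall on the same arrays, so the lower sum was fixed in advance. Their median level was 67.3%, 49.4% and 83.3% at rest and 26.7%, 25.2% and 20.1% after IL-15. Summed over all members, the signal was 57.1%, 64.2% and 72.5% at rest and 51.3%, 50.2% and 49.7% after IL-15. Of the markers tested in the same comparison, 7 of 8 macrophage and monocyte, 4 of 7 B-cell and 4 of 8 T-cell genes fell. So did 3 of 5 plasmacytoid dendritic cell and 4 of 13 NK-cell genes. For conventional dendritic cell, neutrophil and erythroid markers it was 1 of 4, 1 of 2 and 0 of 2. None of these markers rose. The share called lower among all genes tested was 12.1%, and the marker counts were not tested against it. Counts of 1 of 4, 1 of 2 and 0 of 2 are too small to set apart from that share. On all IL-15 arrays 8 of 13 macrophage and monocyte markers were at the floor (Lyz1, Mpeg1, Cd14, Clec4a2, C1qa, C1qb, C1qc and Vcam1), and 7 of 13 B-cell markers, Ms4a1 and Cd79a among them. A marker at the floor on all IL-15 arrays could be tested only through its resting arrays, so its direction was fixed in advance. Such genes are among the macrophage and B-cell markers tested. In bulk samples fewer cells of a type and less RNA per cell cannot be told apart. The part of other cells in the falls was not tested.

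**Figure D3:**
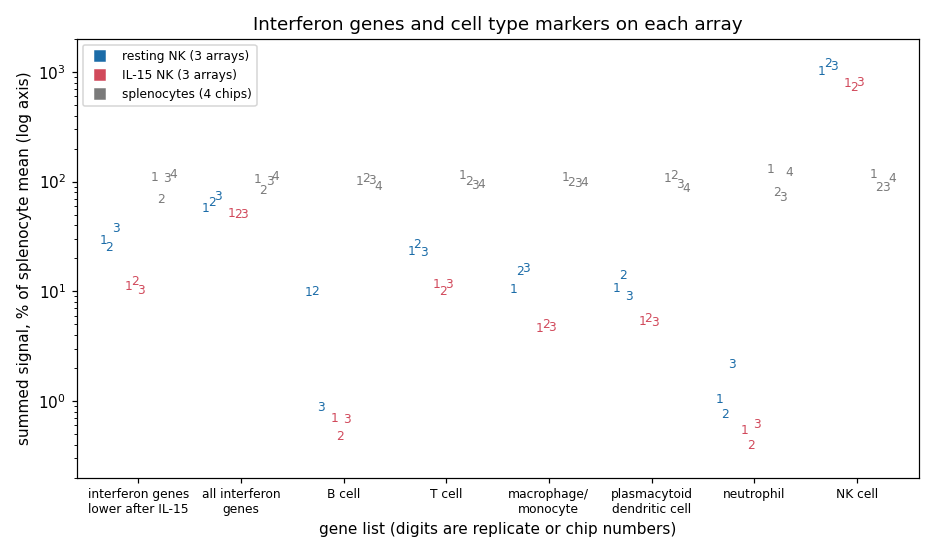
Summed linear signal of the 13 members that fell after IL-15, of all members and of marker lists on each array, as percent of the splenocyte mean (log axis). Digits give the replicate or chip number and colours the group. The falling members, picked by their fall on these arrays, stand at 25.3% to 37.4% on resting and 10.1% to 12.3% on IL-15 arrays. All members stand at 57.1% to 72.5% and 49.7% to 51.3%. The B-cell markers of resting replicate 3 lie apart from those of replicates 1 and 2.

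At rest the falling members stood at widely different levels relative to splenocytes. Of the 13, Ifih1, Ifit2, Gbp2 and Dtx3l were at 149%, 195%, 113% and 118% of the splenocyte level at rest, and 9 were below it. Mx1 and Cxcl10 were at 96.7% and 85.8%, Rtp4, Ifit3 and Xaf1 at 73.0%, 56.1% and 46.2%, and Oasl1, Ifit1 and Cmpk2 at 35.0%, 24.8% and 20%, and Rsad2 at 3.60%. With resting replicate 3 as the only resting array, Ifit3, Cmpk2 and Cxcl10 were above the floor on too few arrays to be tested. Rsad2, Rtp4, Ifih1, Mx1, Gbp2 and Ifit1 then differed by -3.78, -2.75, -2.09, -1.87, -1.69 and -1.61. Xaf1, Dtx3l, Ifit2 and Oasl1 differed by -1.32, -1.01, -0.94 and -0.84, and Igtp and Lgals3bp by 0.63 and 1.12. Resting replicate 3 had the lowest B-cell but the highest macrophage and neutrophil marker signal of the 3 resting arrays. Of the 34 members tested, 8 had their highest resting signal on replicate 1, 9 on replicate 2 and 17 on replicate 3. The share over all genes is not given here, so this count does not set the members apart.

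Resting NK cells held most of these transcripts at lower levels than the whole spleen. Of 36 members tested, 19 were lower, 3 higher and 14 did not pass, while 21.5% of all 12938 genes tested were called lower and 17.1% higher. The median difference was -0.83, beside -0.06 for all genes. The RNA-binding group gave 8 lower and 1 higher of 9, and none of the 4 sensors passed.

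Among the probe sets that represent the members, that of Isg20 showed the widest gap, with 8.70, 9.33 and 9.03 on resting arrays and 14.22, 13.66, 14.61 and 14.73 in splenocytes. It was 39.1-fold lower in resting NK cells (log2 difference -5.29 ± 0.58, adjusted p = 0.00023). Rsad2 was 27.8-fold lower (adjusted p = 1.5e-05), and its other 2 probe sets, at 7.95 and 8.18 in resting NK cells and 14.12 and 14.63 in splenocytes, lay farther apart. Oasl2, an OAS-like protein, was above the floor on 1 resting array only, at 8.07, and was 11.52, 11.12, 11.85 and 11.96 in splenocytes, at least 15.3-fold more (adjusted p = 1.6e-05). Oas3, a synthetase of 2-5A that activates RNase L, was at 8.34 on that same array, resting replicate 3, and at the floor on the other two. Splenocytes had 11.12, 10.18, 11.07 and 12.06, at least 10.1-fold more (adjusted p = 0.00018). Oasl2 and Oas3 are among the 19 lower members but entered this test only through the splenocyte chips, where they are high. Cmpk2 was 4.99-fold lower (adjusted p = 0.00041).

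The 3 members that were higher in resting NK cells were Ifit2, Ifi47 and Parp14. Ifit2 was 1.95-fold higher (adjusted p = 0.0038). Ifi47, an IRG protein, gave 14.96, 15.24 and 15.62 in resting NK cells against 14.54, 14.52, 14.19 and 14.32 in splenocytes, 1.84-fold higher (adjusted p = 0.0090). Parp14, a mono-ADP-ribosyltransferase, was 1.58-fold higher (adjusted p = 0.036).

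**Figure D4:**
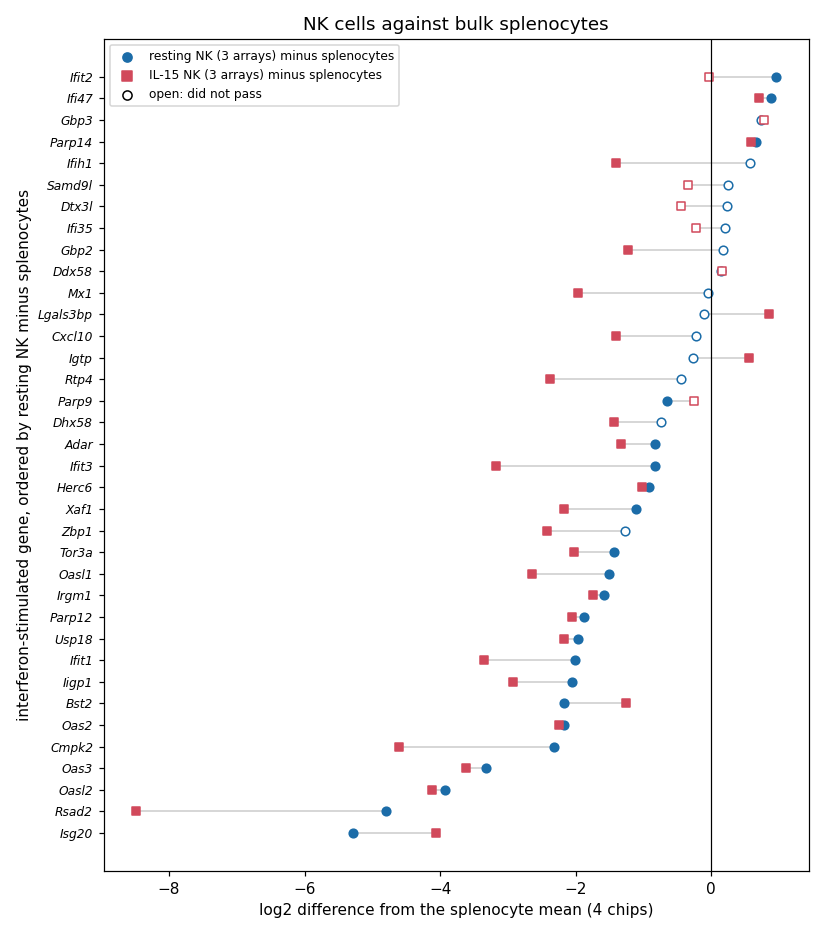
Log2 difference from the splenocyte mean (4 chips) of each of the 36 members tested, for resting NK cells (circles, 3 arrays) and IL-15 NK cells (squares, 3 arrays), ordered by the resting difference. Open symbols did not pass the test, both sets share the splenocyte chips, and the square of Rsad2 at -8.49 lies farthest left.

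IL-15 NK cells had 25 of 36 members lower than splenocytes, 4 higher and 7 that did not pass, beside 23.5% lower and 20.8% higher of all 12465 genes tested. The median difference was -1.58, beside -0.10 for all genes. Rsad2 was at least 360-fold lower (log2 difference -8.49 ± 0.30, adjusted p = 2e-06) and Cmpk2 at least 24.2-fold (adjusted p = 1.1e-05). Oasl2, Oas3 and Cxcl10, at the floor on all IL-15 arrays, are among the 25 but entered the test only through the splenocyte chips, where they are high. Ifit3 and Cmpk2 were above the floor on 1 IL-15 array each, and Rsad2, Ifit1, Oasl1, Mx1 and Dhx58 on 2 each. They too reached this test only with the splenocyte chips, where they are high. Oasl2 and Oas3 were at least 17.4-fold and 12.3-fold lower (adjusted p = 1.1e-05 and 1e-04). Isg20 was 16.7-fold lower (adjusted p = 0.00080).

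Lgals3bp was 1.80-fold, Ifi47 1.63-fold, Parp14 1.51-fold and Igtp 1.48-fold higher in IL-15 NK cells than in splenocytes (adjusted p = 0.033, 0.022, 0.048 and 0.018). Without IL-15 replicate 3 only 1 of these members was called higher, and without resting replicate 2 or 3, which share the variance, 5 members were.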

How the data were processed

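RNA of resting NK cells (3 arrays), IL-15 NK cells (3) and splenocytes (4 chips of 2 samples) was read on MOE430_2 arrays. The table the authors deposited gives a linear signal intensity for every probe set on every array. The submitters' processing notes name GCOS 1.4. How probes were summarised and which scaling target was set is not given in the sources used here. The mean intensity without the top and bottom 2% was 1500 on each array as deposited, and no further scaling was applied. A change in total RNA would not be seen after such scaling.

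The floor was the median over arrays of the 40th percentile, 179.8 units. Signals were set to it where lower, and log2 was taken. GEO's platform annotation, which can be old, gave 34945 of 45101 probe sets 1 gene, 932 several and 9160 none, and 64 control sets were left out. For each of 18193 genes the probe set of highest mean log2 signal was used. Genes above the floor on fewer than 3 arrays of a comparison were not tested in it.

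limma 3.58.1 in R 4.3.3 (lmFit, eBayes with intensity trend, 2-sided, Benjamini-Hochberg, threshold 0.05) compared the NK groups over 6 arrays. For splenocyte comparisons all 3 groups shared 1 variance. Which chips share a sample is not given, so chips were averaged in pairs under each of the 3 pairings and the largest p was kept. Second probe sets were adjusted over all probe sets. The design text calls the NK arrays biological replicates but names no animals, so p-values measure the spread between these arrays. Their number limits the precision. The fit was tested on simulated data.

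Members, gene lists and tests were chosen with earlier results of these data known. Array values are given for up to 3 members per role that passed with the largest differences, for members that rose, and for the brightest where none passed, and of each pathway list up to 4 genes that passed. Against splenocytes the 5 largest differences each way are given. Other array values (Ddx58, Zbp1, Oas2, Isg20, Usp18, Bst2, Ifit2) were added after the values were seen. Promoter letters come from RefSeq, assembly GRCm38.p6. Alternatives were other floors, an offset, quantile normalization, no filter, no trend, the mean over probe sets, a replicate block and leaving out arrays.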

Additional observations from a re-analysis of the deposited data

Results flagged for a closer look

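Of 37 members with 4 splenocyte chips each, 1 had a chip far from the other 3, where chance alone would give about 5%. The log2 signal of Rsad2 was 15.68 on splenocyte chip 2 and 16.55 to 16.69 on the other chips. The gap to the nearest chip was 0.861 of the whole range. Both resting and IL-15 NK arrays were below every splenocyte chip.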

How the results depend on the processing

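For IL-15 NK against resting NK, the counts of 13 lower and 2 higher members became 8 and 1 with every gene tested. Of all genes, 677 were then called lower and 969 higher of 18193, beside 1384 and 1619 of 11433 in the main fit. The member counts were 4 and 0 among the 10 members not brighter in splenocytes, as fewer members are counted there. The resting values that select these 10 also enter the difference. With resting replicate 3 as the only resting array, which is then assumed to vary like the others, Igtp differed by 0.63 and Lgals3bp by 1.12. Leaving out 1 array at a time gave 9 to 13 lower and 1 to 3 higher members. The design text speaks of 3 pairs of NK samples without saying which arrays form a pair. Deviations of same-numbered arrays correlated at 0.10, 0.28 and 0.07, so the numbers were not taken as pairs, and resting replicate 3 correlated best with IL-15 replicate 1 (0.15). A replicate block gave 15 lower and 4 higher members, adding Zbp1, Samd9l, Isg20 and Bst2. For IL-15 NK against splenocytes, the 4 higher members became 2 with quantile normalization, 1 with every gene tested and 1 to 5 without 1 array, and for resting NK against splenocytes no alternative moved a count by more than 1.5 times. Herc6, at -0.11, became 0.32 in the mean over probe sets, 0.26 against resting replicate 3 alone, and ranged from -0.30 to 0.04 without 1 array, with 0 without resting replicate 1 and 0.04 without IL-15 replicate 3; the cause was not tested. Over 15 genes named, 187 values kept their direction and side of the threshold, 28 kept the direction but did not pass, and 4, those of Herc6, changed sign or reached 0. Quantile normalization shifted the median of all genes from -0.09 to 0 and changed the call of Oasl1, Samd9l and Bst2.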
